A study of Caenorhabditis elegans with 30 samples.

Results

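The genes described here are 10 rows of the count table that are named for the inducible heat shock response of the cytosol, out of 46748 genes in the table. They were taken by gene identifier. They comprise 4 genes of the hsp-16 family (hsp-16.1, hsp-16.2, hsp-16.41 and hsp-16.48), 3 genes of the inducible Hsp70 kind (hsp-70, F44E5.4 and F44E5.5), and the small heat shock protein genes hsp-12.6, hsp-12.3 and hsp-17. Polyadenylated RNA came from whole 5-day-old hermaphrodites of the wild-type Caenorhabditis elegans strain N2. The 30 libraries form 10 groups of 3. Titles with the prefix ZK cover the RNAi treatments R186.7, ZK795.1, C01A2.5 and M04C9.5, each named for the gene sequence targeted, and an L4440 control, called L4440_ZK here. Titles with the prefix RM cover F25H2.5, F55H2.6, R04E5.10 and F26D12.1 and a second L4440 control, L4440_RM. L4440 is the empty plasmid of feeding RNAi, and no group differs from another in strain or age. No sample was labelled as heated, so these values are levels of heat shock transcripts without a stated heat treatment, and inducibility itself was not measured.

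When proteins unfold in the cytosol, the transcription factor HSF-1 switches on genes for chaperones. The products of the hsp-16 genes are small heat shock proteins, which hold unfolded proteins so that they do not clump. Hsp70 proteins bind and release exposed stretches of protein with the use of ATP, and hsp-70 is the gene of this kind that responds most to heat in this animal. The hsp-12 genes encode small relatives that are known more for being raised in long-lived animals with low insulin-like signalling than for a response to heat.

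The labels were checked against the targeted genes. Transcripts of pnn-1 (R186.7), ipmk-1 (ZK795.1), tads-1 (C01A2.5), ndk-1 (F25H2.5) and clu-1 (F55H2.6) were lower than in the L4440 libraries of the same prefix, by 0.62 to 4.46 on the log2 scale. Those of dyf-5 were higher in the libraries labelled M04C9.5 (7, 9 and 15 counts in controls, 231, 371 and 295 under the label), and those of ifd-1 were higher in the libraries labelled R04E5.10 (log2 fold change 2.01 ± 0.25). Counts of fkh-7 did not pass the test in the libraries labelled F26D12.1 (0.23 ± 0.15). For these 3 groups the label therefore names the libraries and not a measured loss of the target. Library totals ran from 31835911 to 44987307 counts, and replicates varied less in the ZK libraries (biological coefficient of variation 5.42%) than in the RM libraries (11.7%). In each group, markers of intestine, body wall muscle, hypodermis, neurons and oocytes all had counts, as the whole-worm label implies. In an alternative fit replicate 3 was left out of every RM group, and values without replicate 3 are given where they change a call.

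Where the genes lie matters for what was counted. On build WBcel235, hsp-16.2 (WBGene00002016, chromosome V, 1804334 to 1804957, minus strand) and hsp-16.41 (WBGene00002018, V, 1805178 to 1805875, plus strand) point away from each other across a gap of 220 bp. A second cluster of hsp-16 genes lies on the same chromosome. There the rule's hsp-16.48 (WBGene00002020, V, 9089280 to 9089766, minus strand) and hsp-16.1 (WBGene00002017, V, 9090077 to 9090604, plus strand) form a divergent pair with a gap of 310 bp. Beside them is a second divergent pair, WBGene00002015 and WBGene00002019 (V, 9088131 to 9088617, plus strand), with a gap of 348 bp. The annotation gives the name hsp-16.1 to WBGene00002015 as well and hsp-16.48 to WBGene00002019 as well. RefSeq's table, matched by coordinates on the same build, names WBGene00002017 hsp-16.11 and WBGene00002020 hsp-16.49. F44E5.4 (WBGene00009691, II, 11757107 to 11759311, minus strand) and F44E5.5 (WBGene00009692, II, 11759662 to 11761861, plus strand) diverge across 350 bp. The genes hsp-12.3 (WBGene00002012, IV, 9444791 to 9445507) and hsp-12.6 (WBGene00002013, IV, 9446229 to 9447228) follow each other on the minus strand, 721 bp apart.

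Both remaining members overlap a gene on the other strand, and the library kit does not mark strand. The gene hsp-70 (WBGene00002026, I, 9320325 to 9322519, minus strand) lies within an intron of uggt-2 and shares 0 bp of exon with it. The gene hsp-17 (WBGene00002021, V, 8384799 to 8385929, minus strand) shares 73 bp of exon with the end of F52E1.14. Reads from the shared stretch cannot be told apart, and values of the neighbours are given beside the members where a neighbour was called.

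The genes were first compared by their level per length in the L4440 libraries, as RPKM, the reads per kilobase of exon relative to the scaled library total. In L4440_ZK, hsp-17 was the highest at 56.8 ± 1.13 (SD, n = 3). Next came hsp-16.41 at 6.87 ± 1.14 and hsp-16.2 at 5.28 ± 0.991, whose ranges over the libraries overlapped. They were followed by hsp-70 at 2.80 ± 0.117, hsp-12.3 at 1.78 ± 0.0824 and hsp-12.6 at 1.34 ± 0.174, each separate from the next in every library. F44E5.5 stood at 0.0202 ± 0.0121, from 5 counts in the 3 libraries, and the remaining members had 0 counts. L4440_RM had the same order except that hsp-16.2, at 4.71 ± 1.10, lay above hsp-16.41, at 3.56 ± 1.12, again with overlapping ranges. There the ranges of hsp-16.41 and hsp-70 (2.35 ± 0.707) also overlapped, as did those of hsp-12.3 (1.01 ± 0.0314) and hsp-12.6 (0.814 ± 0.296). Thus the member with by far the most counts per length was hsp-17. Its overlapping neighbour F52E1.14 stood higher still per length in both L4440 groups. The part of F52E1.14 reads in the hsp-17 level was not tested. The classic heat reporters hsp-16.2 and hsp-70 were detected at low levels in every library, at 67 to 238 and 109 to 272 counts.

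**Figure D1:**
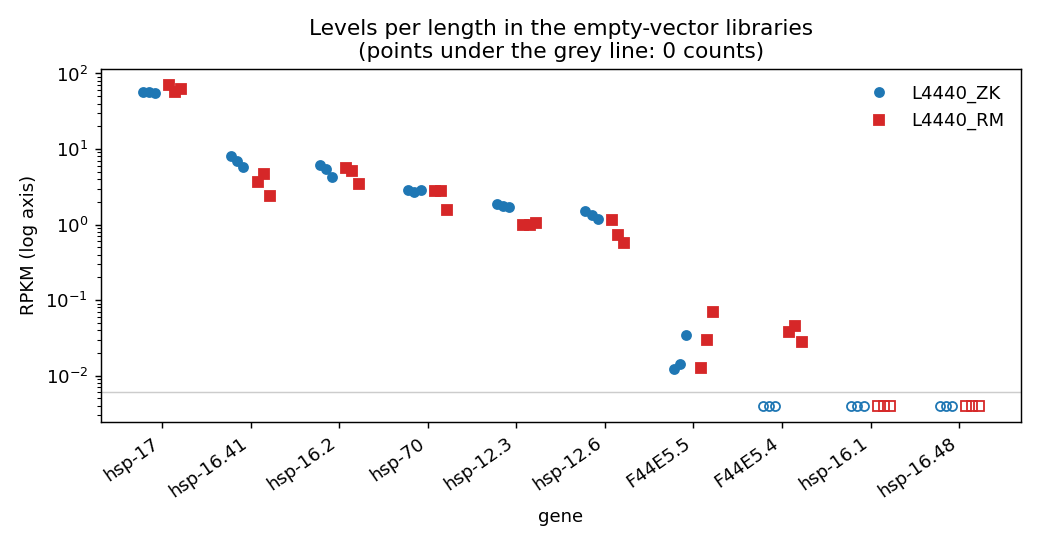
Level per length (RPKM, log axis) of the 10 members in the 3 L4440_ZK libraries (circles) and the 3 L4440_RM libraries (squares), with 1 point per library. Open points under the grey line stand for 0 counts and carry no level. hsp-17 lies between 55.5 and 71.3, the next 5 genes between 0.56 and 8.0, and the F44E5 genes under 0.1.

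The hsp-16 genes of the second cluster were almost without counts under the identifiers of the rule. WBGene00002017 had 3 counts over all 30 libraries and WBGene00002020 had 1. WBGene00002015 had 0. The fourth gene of that cluster, WBGene00002019, had 64 to 418 counts per library. How reads that match several places were treated is not given in the sources used here, so these low counts do not show that the genes were silent. Nor is it known whether counts under WBGene00002019 include reads from WBGene00002020, which has the same name and the same exon length, 432 bp. F44E5.4 and F44E5.5 are likewise near copies of each other, with 91 and 96 counts over all libraries. Of the 10 members, 7 passed the filter on low counts in the ZK fit and in the fit of all libraries, and 6 in the RM fit. F44E5.5 passed in the ZK fit only through the C01A2.5 libraries, since it did not pass with those left out.

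**Figure D2:**
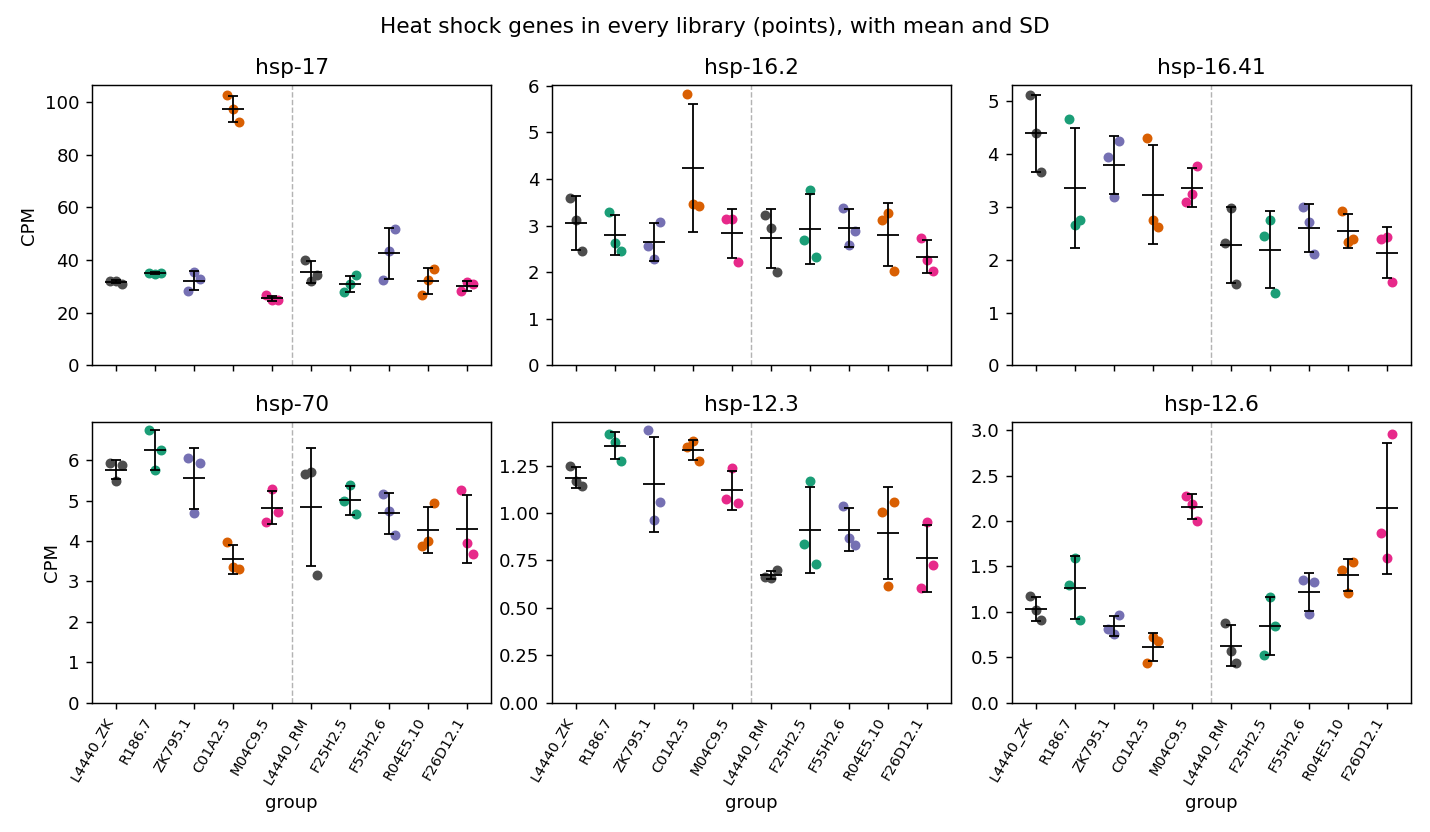
Levels in CPM of the 6 members with counts in every library, by group, with the ZK groups left and the RM groups right of the dashed line in each panel. Points are the 3 libraries of a group in replicate order, and bars are the mean and SD. The hsp-17 panel shows the 3 C01A2.5 libraries at 92.7 to 103 and every other library at or below 51.8, and the hsp-12.6 panel shows the M04C9.5 libraries at 2.00 to 2.27 above the 0.904 to 1.17 of L4440_ZK.

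The question for each treatment was whether these transcripts differ from the L4440 libraries of the same prefix. Levels below are CPM, counts relative to the scaled library total of a prefix, with libraries in replicate order. Differences are log2 fold changes ± standard error from edgeR's quasi-likelihood test with Benjamini-Hochberg adjustment over all genes of the fit, and a gene is called at an adjusted p below 0.05. The 4 treatments of a prefix share their control libraries. In whole-worm RNA, fewer cells of a type and less RNA per cell cannot be told apart.

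After C01A2.5 RNAi, 4 of the 6 members that pass the filter without these libraries were called, 2 higher and 2 lower, where 88.1% of all tested genes were called, 51.7% higher and 36.4% lower. F44E5.5, which was tested only because it is high in these libraries, would make it 5 of 7. The libraries of the groups did not overlap for 88.2% of all tested genes. With that background the number of calls says nothing about heat shock genes, and the directions and sizes are what can be read. The median of all tested genes was itself shifted by 0.42, and values relative to it are given beside the fold changes of the members. Animals of this group also had sperm markers far above the control: the summed CPM of 37 such genes was 4152 to 4646, against 18.6 to 26.4 in L4440_ZK, and 36 of the 36 tested were higher. Summed markers of oocytes and eggshell were lower, at 10191 to 10914 against 18503 to 20604, and those of intestine higher, at 53566 to 76903 against 40876 to 44593. The 13 intestinal markers hold the yolk protein genes vit-1 to vit-6, and the part of these genes in the sums was not examined. Of 8 neuron markers 7 were higher, and of 8 hypodermal markers 3 were higher and 4 lower. The part of these shifts in the values below was not tested.

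The small heat shock gene hsp-17 stood at 103, 97.2 and 92.7 CPM in the C01A2.5 libraries and at 32.1, 32.2 and 31.1 in L4440_ZK. All treated libraries were about 3 times as high as all controls, with no overlap. The log2 fold change was 1.62 ± 0.06 (adjusted p = 1.04e-20), which is 1.19 above the median gene, and over the alternatives tried it ran from 1.36 to 1.86. The gene that shares 73 bp with it, F52E1.14, was higher by 0.57 ± 0.06 in the same libraries, or 0.14 above the median gene. In ZK795.1, where F52E1.14 was lower by 0.47 ± 0.06 (adjusted p = 1.18e-06), hsp-17 differed from the control by 0.02 ± 0.07. In the libraries labelled M04C9.5 both were lower, hsp-17 at -0.32 ± 0.07 and F52E1.14 at -0.19 ± 0.06. The part of F52E1.14 reads in the hsp-17 differences was not tested.

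The Hsp70 genes did not move together in C01A2.5. The main inducible gene, hsp-70, was at 3.97, 3.37 and 3.30 CPM against 5.93, 5.49 and 5.88. Every treated library lay below every control. It fell by 0.70 ± 0.12 on the log2 scale (adjusted p = 1.88e-06), or 1.12 below the median gene. Its host gene uggt-2, which encodes a relative of the glucosyltransferase that checks glycoprotein folding, rose in the same libraries by 5.82 ± 0.13, from 0.514 ± 0.062 to 29.3 ± 2.1 CPM. The divergent pair F44E5.4 and F44E5.5 gave 16, 10 and 2 counts and 15, 15 and 11 counts. In L4440_ZK they gave 0, 0 and 0 and 1, 1 and 3 counts. F44E5.4 was too low to be tested, and its level in the group was at least 8.77-fold higher than 3 counts over the 3 controls would give, which covers counting error only. F44E5.5 was called (2.86 ± 0.54, adjusted p = 1.55e-05), but for the reason given above the call adds nothing to the counts.

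Of the hsp-16 genes in C01A2.5, hsp-16.2 was at 5.83, 3.46 and 3.41 CPM against 3.59, 3.12 and 2.45. The first library was the highest of all 30, and the other 2 lay within the range of the controls. The log2 fold change of 0.48 ± 0.21 (adjusted p = 0.0387) was 0.05 above the median gene and was lost without that library (0.13, adjusted p = 0.479), without the second or the third control (adjusted p = 0.0787 and 0.242), with relative log expression factors (0.25, adjusted p = 0.253), in the fit of the 6 libraries compared (adjusted p = 0.0972) and in DESeq2 (adjusted p = 0.373). Its partner hsp-16.41 was at 4.31, 2.76 and 2.63 against 5.12, 4.41 and 3.66 CPM, and did not pass the test (-0.44 ± 0.22, adjusted p = 0.0759), at 0.86 below the median gene. With relative log expression factors it was called lower (-0.67, adjusted p = 0.00965), and likewise without the first treated library (-0.75, adjusted p = 0.00195) or the third control (-0.61, adjusted p = 0.0296), in DESeq2 (adjusted p = 0.00124), without a filter (adjusted p = 6.51e-05) and in the fit of the 6 libraries compared (adjusted p = 0.0123). WBGene00002019, the second gene named hsp-16.48, was higher with 10.2, 6.31 and 5.31 against 3.51, 2.79 and 2.47 CPM (1.32 ± 0.20, adjusted p = 1.08e-05), or 0.90 above the median gene. Of the 3 hsp-16 genes that could be tested, hsp-16.2 and WBGene00002019 were thus called higher and hsp-16.41 was not called.

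Of the hsp-12 pair in C01A2.5, hsp-12.6 was at 0.441, 0.723 and 0.677 CPM against 1.17, 1.02 and 0.904, all below the controls (-0.74 ± 0.23, adjusted p = 0.00417), or 1.16 below the median gene. Its neighbour hsp-12.3, at 1.35, 1.38 and 1.27 against 1.25, 1.17 and 1.14, did not pass the test (0.17 ± 0.17, adjusted p = 0.349, 95% interval -0.17 to 0.51), and relative to the median gene it was -0.25. With library totals as the scale it was called higher (0.41, adjusted p = 0.0285).

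The ratio of hsp-16.2 to hsp-16.41 counts within a library is free of the scaling between libraries, and it was examined after the levels had been seen. In L4440_ZK the 3 libraries gave 0.702, 0.707 and 0.669. In C01A2.5 they gave 1.35, 1.25 and 1.30, and in L4440_RM 1.39, 0.989 and 1.30. Both of these groups lay wholly above L4440_ZK, while ZK795.1 (mean 0.697 ± 0.0410, SD, n = 3), R186.7 (0.861 ± 0.146) and M04C9.5 (0.859 ± 0.235) overlapped with it. The difference from L4440_ZK was 0.91 on the log2 scale for C01A2.5 and 0.81 for L4440_RM, each with p = 0.1 in a two-sided exact permutation test and 0.45 after adjustment over 9 comparisons. With 3 libraries against 3, p cannot go below 0.1. The 4 RM treatments overlapped with L4440_RM, with p between 0.5 and 0.7.

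**Figure D3:**
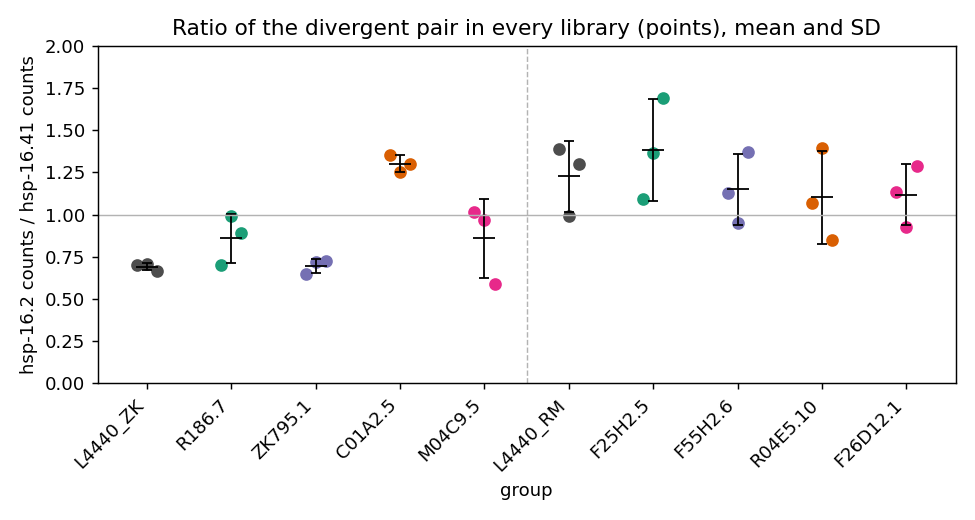
Ratio of hsp-16.2 counts to hsp-16.41 counts in each library (points, in replicate order) with mean and SD by group, and a grey line at equal counts. L4440_ZK and ZK795.1 lie between 0.65 and 0.724, C01A2.5 between 1.25 and 1.35, and the RM groups between 0.848 and 1.69.

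In the libraries labelled M04C9.5, 2 of the 7 members tested were called, 1 in each direction, where 19.8% of all genes were called, 10.3% higher and 9.5% lower. Of these genes 1692 were higher and 1567 lower, against 1446 and 2776 with relative log expression factors and 2676 and 782 with library totals as the scale. The 7 members include F44E5.5, which was tested only through the C01A2.5 libraries and had 3 counts here against 5 in L4440_ZK. The libraries did not overlap for 37.9% of all tested genes. The gene hsp-12.6 was at 2.27, 2.19 and 2.00 CPM against 1.17, 1.02 and 0.904 in L4440_ZK. The lowest of the M04C9.5 libraries was well above the highest control. The log2 fold change was 1.06 ± 0.19 (adjusted p = 7.27e-05), and it passed the test in each of the 15 alternatives, from 0.93 to 1.17. Its neighbour hsp-12.3 was at 1.07, 1.24 and 1.05 against 1.25, 1.17 and 1.14 (-0.08 ± 0.18, adjusted p = 0.807), so of this pair only hsp-12.6 was called.

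In the same libraries hsp-17 was at 26.6, 24.9 and 24.9 CPM against 32.1, 32.2 and 31.1, all below the controls. It fell by 0.32 ± 0.07 (adjusted p = 5.46e-04), which did not pass in the fit of all 30 libraries (adjusted p = 0.113). Its overlapping neighbour F52E1.14 was lower by 0.19 ± 0.06 (adjusted p = 0.0152). The second gene named hsp-16.48, WBGene00002019, was at 1.67, 1.8 and 1.7 against 3.51, 2.79 and 2.47 CPM (-0.76 ± 0.25, adjusted p = 0.0386). Values of hsp-70 were 4.47, 5.29 and 4.73 against 5.93, 5.49 and 5.88 CPM, without overlap, and did not pass the test (-0.26 ± 0.11, adjusted p = 0.108). With relative log expression factors they did (-0.31, adjusted p = 0.0376). The host gene uggt-2 was higher in the same libraries (1.04 ± 0.20, adjusted p = 2.33e-04). Neither hsp-16.2 (-0.10 ± 0.22, adjusted p = 0.805) nor hsp-16.41 (-0.38 ± 0.22, adjusted p = 0.261) passed the test. Without a filter hsp-16.41 was called lower (-0.38, adjusted p = 0.0342), and likewise in the fit of the 6 libraries compared (-0.38, adjusted p = 0.0290). Intestinal markers in these libraries, vit-1 to vit-6 among them, summed to 20144 to 24808 CPM, against 40876 to 44593 in L4440_ZK. Of the 13, 8 were lower and 2 higher. Of body wall muscle markers 5 of 8 were lower, of oocyte and eggshell markers 6 of 16, and of hypodermal markers 4 of 8 with 1 higher. The lower ones were 3, 3 and 2 with library totals and 7, 9 and 4 with relative log expression factors. Of 8 neuron markers 2 were higher and 0 lower, or 0 higher and 1 lower with relative log expression factors. The part of these differences in the values above was not tested.

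After R186.7 and ZK795.1 RNAi, 0 of 7 members were called by edgeR, where 2.55% and 1.99% of all genes were called. The 7 include F44E5.5, which was tested only through the C01A2.5 libraries and had 1 count in each treatment against 5. DESeq2 also called 0 members in each. Over all genes it called 222 higher and 469 lower of 11992 in R186.7, and 217 and 380 of 10976 in ZK795.1. In R186.7 hsp-17 was at 35.2, 34.7 and 35.2 CPM against 32.1, 32.2 and 31.1 and did not pass the test (0.14 ± 0.06, adjusted p = 0.312). For hsp-70 the 95% intervals of the log2 difference were -0.09 to 0.33 in R186.7 and -0.26 to 0.17 in ZK795.1. For hsp-16.2 they were -0.55 to 0.30 and -0.63 to 0.24, and for hsp-16.41 -0.81 to 0.06 and -0.63 to 0.23.

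Among the RM treatments, hsp-12.6 was the member with the largest differences. Control libraries were at 0.877, 0.564 and 0.436 CPM, from 33, 18 and 15 counts. The libraries labelled F26D12.1 were at 1.87, 1.59 and 2.96, and those labelled R04E5.10 at 1.46, 1.21 and 1.54. F55H2.6 libraries were at 1.35, 0.974 and 1.32, and F25H2.5 libraries at 0.519, 1.17 and 0.843. In the first 3 of these groups every library lay above every control, and F25H2.5 overlapped with the control. Over all tested genes the libraries did not overlap for 6.35% (F26D12.1), 22.6% (R04E5.10) and 32.2% (F55H2.6).

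By edgeR, F55H2.6 had 1 call among the 6 members tested, where 18.9% of all genes were called and 10.4% were called higher, and that call was hsp-12.6 (0.94 ± 0.32, adjusted p = 0.0488). The other RM treatments had 0. Over all genes there were 2326 higher and 545 lower with library totals in F55H2.6, and 1337 and 1869 with relative log expression factors. The hsp-12.6 call did not hold with relative log expression factors, in the fit of the 6 libraries compared, in DESeq2 (adjusted p = 0.0531), with replicates 1 and 2 alone (0.66, adjusted p = 0.306), or without the second control (0.87, adjusted p = 0.113), the third control (0.74, adjusted p = 0.179), the first treated library (0.86, adjusted p = 0.114) or the third (0.89, adjusted p = 0.146). In the libraries labelled R04E5.10 the difference was 1.15 ± 0.32 and did not pass (adjusted p = 0.0740), but passed in DESeq2 (adjusted p = 0.0352). In those labelled F26D12.1 the difference was the largest, 1.75 ± 0.31, with an unadjusted p of 3.36e-05 and an adjusted p of 0.133 over 15795 genes. DESeq2 called it (adjusted p = 0.00278), as did the fit of all 30 libraries (adjusted p = 0.00245) and the fit without a filter (adjusted p = 0.00510). With replicates 1 and 2 alone it was 1.25 (adjusted p = 1.00), and the third library, at 2.96 CPM, was the highest of its group. The difference in F25H2.5 was 0.41 ± 0.34 (adjusted p = 0.480). These values share the 3 controls, of which the first was closest to the treated libraries.

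Counts of called members by edgeR were thus 0 of 6 in F25H2.5, R04E5.10 and F26D12.1, where 8.65%, 2.28% and 0.00633% of all genes were called. DESeq2 called 0, 1 and 1. Over all genes it called 943 higher and 583 lower of 13098, 349 and 255 of 14565, and 4 and 0 of 26305. The member that DESeq2 called under the labels R04E5.10 and F26D12.1 was in both cases hsp-12.6. The sum of the intestinal markers, vit-1 to vit-6 among them, was lower in the libraries labelled R04E5.10. There the markers were at 26737 to 29781 summed CPM against 37846 to 45367 in L4440_RM, with 4 of 13 called lower and 1 higher. In those labelled F26D12.1 they summed to 35053 to 38968, which overlaps with the control, with 0 of 13 called. The part of these markers in the hsp-12.6 values was not tested.

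No difference of hsp-70, hsp-16.2 or hsp-16.41 passed the test in an RM treatment by edgeR. Values of hsp-70 ran from 3.17 to 5.70 CPM in L4440_RM, where the third library was the low one, and from 3.68 to 5.38 in the 4 treatments, with log2 differences from -0.18 to 0.05 and standard errors near 0.20. For hsp-16.2 the controls were at 3.22, 2.94 and 2.00 CPM, and the differences ran from -0.22 to 0.11. For hsp-16.41 they ran from -0.09 to 0.20, with standard errors of 0.26 to 0.27. Values of hsp-12.3 were higher in all 4 treatments by 0.17 to 0.44, none past the test, against controls at 0.665, 0.658 and 0.697 CPM. For hsp-17 the largest value was in F55H2.6, at 32.5, 43.3 and 51.8 CPM against 39.9, 32.0 and 34.5 (0.26 ± 0.15, adjusted p = 0.238). Without the first F55H2.6 library it was called (0.42, adjusted p = 0.0388). F52E1.14, which overlaps it, was higher in F55H2.6 by 0.64 ± 0.09 (adjusted p = 3.00e-04). It was also higher in F25H2.5 (0.40 ± 0.09, adjusted p = 0.0158), where hsp-17 differed by -0.20 ± 0.15.

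**Figure D4:**
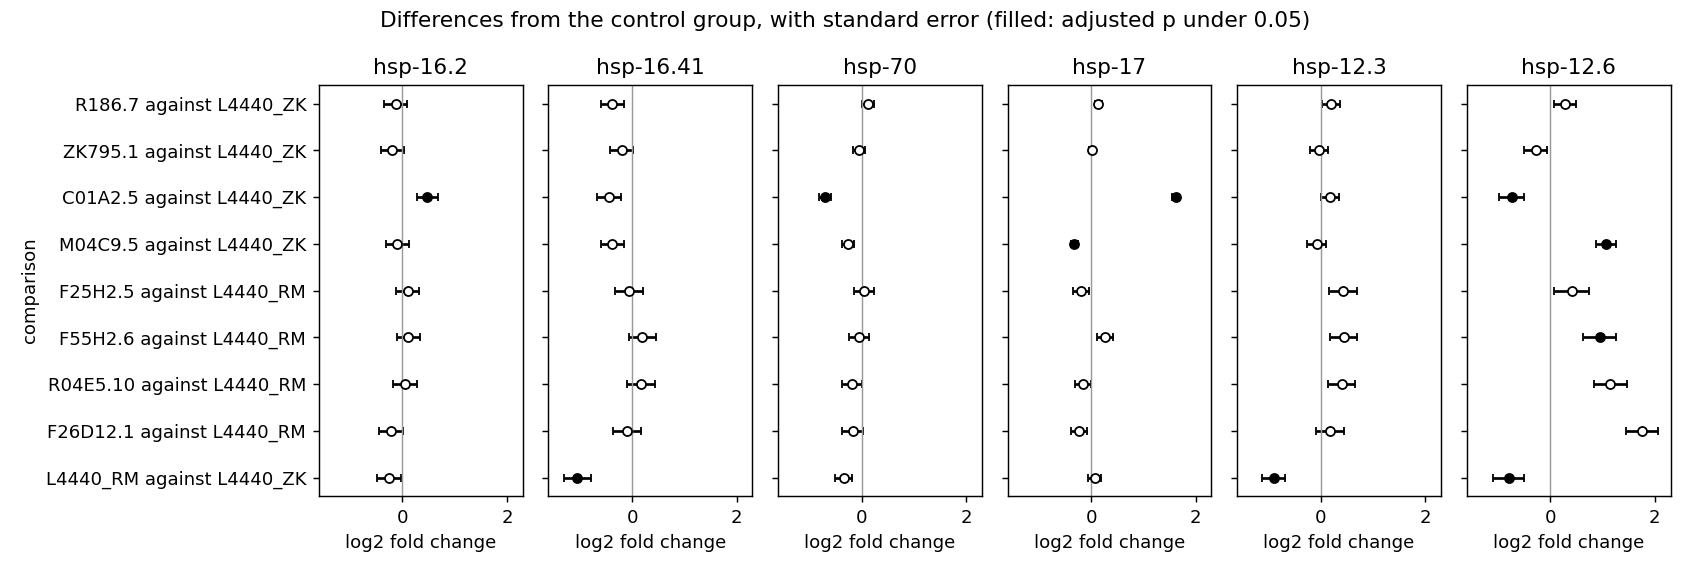
Log2 fold change ± standard error of the 6 members tested in every comparison, with 1 panel per gene and 1 line per comparison, and filled points for an adjusted p below 0.05. The hsp-12.6 panel spans -0.79 to 1.75, hsp-17 has 1 point far from 0 (1.62 in C01A2.5), and hsp-16.41 and hsp-12.3 are filled in the comparison of the L4440 groups only.

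Both L4440 groups are empty vector, and they differ in the labels by title prefix, so what they show cannot be told apart from any difference between the prefixes. Of the 7 members tested, 3 were called lower in L4440_RM and 0 higher, where 19.9% of all genes were called lower and 43.8% in either direction. The 7 include F44E5.5, which had 8 counts in L4440_RM against 5 in L4440_ZK. The lower calls over all genes, 3362 here, were 3942 with relative log expression factors and 1751 with library totals, and the higher ones 3562 and 6050. The libraries did not overlap for 52.6% of all tested genes. On the scale of all 30 libraries hsp-16.41 was at 2.23, 2.87 and 1.51 CPM in L4440_RM and at 5.31, 4.58 and 3.72 in L4440_ZK, without overlap (-1.04 ± 0.25, adjusted p = 0.00172). The gene hsp-12.3 was at 0.640, 0.635 and 0.682 against 1.29, 1.22 and 1.16 (-0.90 ± 0.21, adjusted p = 0.00119). Both calls held in every alternative tried. The call on hsp-12.6, at 0.844, 0.544 and 0.426 against 1.21, 1.06 and 0.919 (-0.79 ± 0.29, adjusted p = 0.0300), did not hold without the first L4440_ZK library (-0.69, adjusted p = 0.107), the second L4440_RM library (-0.74, adjusted p = 0.0766) or the third (-0.60, adjusted p = 0.129), nor with library totals as the scale (adjusted p = 0.0686) or with RM replicates 1 and 2 alone (-0.63, adjusted p = 0.0843).

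For hsp-70 the L4440_RM libraries were at 5.45, 5.50 and 3.10 CPM and those of L4440_ZK at 6.15, 5.71 and 5.97 (-0.34 ± 0.16, adjusted p = 0.0848). It was called without the first L4440_RM library (-0.48, adjusted p = 0.0384) or the second (-0.49, adjusted p = 0.0327), and with relative log expression factors (-0.39, adjusted p = 0.0472). Its host gene uggt-2 was higher in L4440_RM (1.18 ± 0.28, adjusted p = 0.00145). No difference passed for hsp-16.2 (-0.25 ± 0.23, adjusted p = 0.387) or hsp-17 (0.07 ± 0.12, adjusted p = 0.682). F44E5.4 had 3, 3 and 2 counts in L4440_RM and 0 in each L4440_ZK library, at least 2.76-fold above a floor of 3 counts over the group. Markers of hypodermis (7 of 8 called), body wall muscle (8 of 8), neurons (5 of 8) and sperm (31 of 36) were higher in L4440_RM. Of oocyte and eggshell markers 7 of 16 were lower, and of intestinal markers 2 of 13 were higher and 3 lower (3 and 2 with library totals). Their part in these differences was not tested.

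Treatments of a prefix were also compared with each other directly, where no control library enters. Over the 6 pairs of ZK treatments there were 19 calls on members, 14 of them in the 3 pairs with C01A2.5, in which 86.7%, 87.8% and 87.0% of all genes were called (R186.7, ZK795.1 and M04C9.5). Of the 14, 3 were F44E5.5, which was tested only because it is high in C01A2.5. In the same 3 pairs hsp-16.2 was called higher in C01A2.5, without overlap (adjusted p = 0.0123, 0.00665 and 0.0151). There hsp-17 was also called higher and hsp-70 lower. Lower hsp-12.6 in C01A2.5 was called against R186.7 and M04C9.5. Those without C01A2.5 all involved the libraries labelled M04C9.5. Against R186.7, in which 17.0% of all genes were called, M04C9.5 had more hsp-12.6 (R186.7 minus M04C9.5, -0.79 ± 0.18, adjusted p = 0.00181), less hsp-17 (0.46 ± 0.07, adjusted p = 3.69e-06) and less hsp-70 (0.37 ± 0.11, adjusted p = 0.0154). Against ZK795.1, with 24.6% of all genes called, the differences were -1.35 ± 0.19 for hsp-12.6 (adjusted p = 2.70e-06) and 0.34 ± 0.07 for hsp-17 (adjusted p = 2.27e-04). Between R186.7 and ZK795.1 edgeR called 0 members, with 8.51% of all genes called. Over the 6 pairs of RM treatments there were 3 calls, and 0 with replicates 1 and 2 alone. These were hsp-12.6, higher in the libraries labelled F26D12.1 than in F25H2.5 (F25H2.5 minus F26D12.1, -1.35 ± 0.30, adjusted p = 0.0102, with 11.5% of all genes called), and hsp-17, higher in F55H2.6 than in F26D12.1 (0.49 ± 0.15, adjusted p = 0.0294, with 22.9% called) and than in F25H2.5 (adjusted p = 0.0369, with 25.9% called and overlapping libraries). The other 3 RM pairs, in which 8.15% (F25H2.5 and R04E5.10), 18.9% (F55H2.6 and R04E5.10) and 3.22% (R04E5.10 and F26D12.1) of all genes were called, had none.

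Other genes of the response were read from the same fits, as lists of general knowledge. Counts of calls in each list stand against the shares of all genes called in either direction. These were 88.1% in C01A2.5, 19.8% in M04C9.5, 18.9% in F55H2.6, 8.65% in F25H2.5 and 43.8% between the L4440 groups. In R186.7, ZK795.1, R04E5.10 and F26D12.1 they were 2.55%, 1.99%, 2.28% and 0.00633%. The transcription factor gene hsf-1 was lower in C01A2.5 (-0.81 ± 0.06, adjusted p = 5.88e-14) and in F55H2.6 (-0.23 ± 0.06, adjusted p = 0.0139), where the call was lost with library totals as the scale (-0.13, adjusted p = 0.171). It did not pass in the other 7 comparisons. Of 11 genes for HSF-1 and regulators linked to it, 3 were higher and 8 lower in C01A2.5 (median -0.68, against 0.42 for all genes). Among them hsb-1, whose product binds HSF-1 and restrains it, was lower by 0.79 ± 0.05 and ddl-1, which works with hsb-1, by 1.06 ± 0.07, while pqm-1, a transcription factor linked to insulin-like signalling, was higher by 1.00 ± 0.06. The gene pqm-1 was also higher in the libraries labelled M04C9.5 (0.31 ± 0.06), in F55H2.6 (0.51 ± 0.09) and in those labelled R04E5.10 (0.38 ± 0.09), with adjusted p-values of 4.79e-04, 0.00129 and 0.0371. The last of these calls was lost with library totals (adjusted p = 0.0614). In F55H2.6, gtbp-1 was lower (-0.26 ± 0.08, adjusted p = 0.0317), though not with library totals (adjusted p = 0.0716), and the list had no further call there. In L4440_RM against L4440_ZK 6 of the 11 were lower (4 with library totals), led by sir-2.1, a sirtuin gene (-0.52 ± 0.08), and hpk-1, a kinase gene (-0.36 ± 0.07). The list had 0 calls by edgeR in R186.7, ZK795.1, F25H2.5 and F26D12.1.

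Chaperones that are made without stress were mostly lower in C01A2.5, where 36.4% of all genes were called lower and 51.7% higher. All 14 genes of the chaperonin that folds actin and tubulin and of prefoldin, which hands it its clients, were lower (median -0.61), for instance pfd-6 (-1.24 ± 0.07), pfd-4 (-1.10 ± 0.08) and cct-6 (-0.79 ± 0.05). Of 18 constitutive chaperones and co-chaperones 16 were lower and 1 higher (median -0.60). Examples are daf-41, the p23 co-chaperone of Hsp90 (-1.22 ± 0.06), and chn-1, a ubiquitin ligase that works with Hsp70 (-1.03 ± 0.06). The gene that rose was unc-23, a BAG-family co-chaperone needed in muscle (1.39 ± 0.08). In the same libraries sperm markers were higher and oocyte markers lower, by the sums given above. In F55H2.6, 3 chaperonin and prefoldin genes and 5 constitutive chaperones were lower, among them cct-6 (-0.25 ± 0.06) and dnj-11 (-0.22 ± 0.06), but with library totals as the scale 1 and 0 were. There 11 of 16 oocyte markers were lower too. F25H2.5, where 8.65% of all genes were called, had 2 lower in each list, and 1 in each with relative log expression factors. In the main fit these were cct-8 (-0.37 ± 0.10), cct-2 (-0.23 ± 0.06), sti-1 (-0.28 ± 0.07) and hsp-110 (-0.23 ± 0.06). The libraries labelled M04C9.5 had 3 lower constitutive chaperones, among them hsp-1, the main constitutive Hsp70 (-0.22 ± 0.07), and cdc-37, a co-chaperone for kinases (-0.19 ± 0.05), but the direction of this list depended on the scale, with 6 lower under relative log expression factors and 2 higher and 0 lower under library totals. The chaperonin and prefoldin list, with 0 calls there, had 3 lower and 4 higher under the same scales, in that order. L4440_RM had 5 of 14 and 13 of 18 lower than L4440_ZK, with dnj-13, an Hsp40 gene (-0.37 ± 0.05), and hsp-1 (-0.56 ± 0.09), and 1 of 18 higher. With library totals these were 2 of 14 and 6 of 18 lower, and 1 and 2 higher. Both lists had 0 calls by edgeR in R186.7, ZK795.1 and the libraries labelled R04E5.10 and F26D12.1.

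Of 11 other small heat shock protein genes, 10 were tested. In C01A2.5 8 were higher and 2 lower (median 0.96), where 51.7% of all genes were called higher and 36.4% lower. Those with the smallest p were hsp-43 (0.86 ± 0.05), hsp-25, a gene of body wall muscle (0.64 ± 0.06), and sip-1 (-1.45 ± 0.06), whose product is known from embryos. Body wall muscle markers were higher in these libraries (7 of 8 called). The gene hsp-12.2, a relative of hsp-12.6, was higher in R186.7 (0.50 ± 0.14, adjusted p = 0.0429, lost at 0.0588 with relative log expression factors), under the label M04C9.5 (0.72 ± 0.14, adjusted p = 1.68e-04) and in L4440_RM against L4440_ZK (0.74 ± 0.17, adjusted p = 9.30e-04). The libraries labelled M04C9.5 had 3 lower (1 with library totals), among them hsp-43 (-0.46 ± 0.06) and WBGene00002019, whose call was lost with library totals (adjusted p = 0.0636). In F55H2.6, sip-1 was lower (-0.52 ± 0.09, adjusted p = 0.00177) and ZK1128.7 higher (0.45 ± 0.12, adjusted p = 0.0183). In L4440_RM 3 of 10 were higher than in L4440_ZK and 0 lower. The list had 0 calls by edgeR in ZK795.1, F25H2.5 and the libraries labelled R04E5.10 and F26D12.1.

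Across the 27 libraries other than C01A2.5, on log2 CPM centred within each prefix, hsp-12.6 varied most among the 6 members with counts in every library (SD 0.63) and hsp-70 least (SD 0.22). The divergent partners hsp-16.2 and hsp-16.41 had a Pearson correlation of 0.60. Each was correlated with hsp-70, at 0.44 and 0.46. WBGene00002019 was correlated with hsp-17 at 0.68 and with hsp-70 at 0.49. The correlation of hsp-12.6 with hsp-70 was -0.22, with its neighbour hsp-12.3 it was 0.14, and with WBGene00002019 it was -0.38. These are descriptions over libraries that share treatments and scaling, and low counts weaken them.

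The genes whose pattern was most like that of a member were looked for in the same 27 libraries, by Pearson correlation among 12797 genes. For hsp-70 they were add-2, F54F7.6, sdz-36, txdc-12.2 and clec-222, at 0.72 to 0.73. For hsp-16.2 they were R05A10.2, sptf-3, grk-2, mfsd-10 and R07E4.3, at 0.69 to 0.74. For hsp-12.6 they were psa-3, WBGene00019117, zig-3, lipl-2 and F43C11.7, at 0.70 to 0.75. Among so many genes some will reach such values, and no p is given.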

How the data were processed

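Gene counts of the 30 libraries were used as the authors deposited them. Per the submitters' processing notes, bcl2fastq 1.8.4, STAR 2.4.1d and featureCounts 1.4.6-p4 were used with build WBcel235, and per the labels' protocols the TruSeq RNA v2 kit, which does not mark strand. A deposited table of normalized values was not used, because its values did not follow the library totals. Computed with those totals, the implied length of a gene varied between libraries by a median of 14.5%. All count columns matched a library.

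From the counts, edgeR 4.0.16 in R 4.3.3 was run with filterByExpr, TMM scaling and robust quasi-likelihood fits: 15 libraries per prefix (16495 and 15795 genes, 10 residual degrees of freedom), and all 30 (16867 genes) for the L4440 groups. p-values were adjusted by Benjamini-Hochberg over all genes and called below 0.05. A standard error is the absolute log2 fold change over the square root of F, and 95% intervals take 1.96 of them on each side. Lengths are merged exons of Ensembl release 115. The scripts were tested on simulated data.

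Nothing says that replicates are separate cultures, so p-values measure the spread between these libraries. Replicates are numbered in accession order. The members and lists were chosen with earlier results of these data known. All 10 members are named, and from other lists at most 3 called genes with the smallest p per comparison, hsf-1, the second hsp-16.1 and hsp-16.48 genes, and 5 genes per pattern search (prior count 2, mean of at least 1 CPM). Floors cover counting error only. Alternatives were relative log expression factors, library totals, no filter, DESeq2 1.42.0, 6 or 30 libraries per fit, no C01A2.5, RM replicates 1 and 2, a replicate block, each library left out, and, added later, members by symbol.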

Additional observations from a re-analysis of the deposited data

How the results depend on the processing

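Of the values for single genes under the alternatives, 828 kept their direction and side of the threshold, 21 gained a call and 21 lost one, and no called value changed sign. A change of sign was counted only where the value passed the threshold in 1 of the 2 fits. The count of called members in M04C9.5 was 2 in the main fit and 1 in the fit of all 30 libraries. It was 3 with relative log expression factors, where hsp-70 was added. It was also 3 without a filter and with only the 6 libraries compared, where hsp-16.41 was added. Over all genes the fit of all 30 libraries called 1151 higher and 671 lower of 16867. The settings with 3 called members gave 1446 and 2776 of 16495, 1668 and 1498 of 27238, and 1916 and 1994 of 14199, in that order. In C01A2.5, with F44E5.5 counted, the count of called members was 5 to 7. The 7 came without a filter, where 9338 genes were higher and 6384 lower of 27238. In F55H2.6 the count went from 1 to 0 with relative log expression factors, DESeq2, the replicate block, replicates 1 and 2 alone and only the 6 libraries compared. Over all genes relative log expression factors called 1337 higher and 1869 lower of 15795, and DESeq2 1180 and 2390 of 14565. The block called 1686 and 1418 of 15795, replicates 1 and 2 alone 451 and 333 of 15910, and the 6 libraries 970 and 488 of 15354. With each library left out the count of members was 0 to 1. In R04E5.10 and in F26D12.1 it went from 0 to 1 without a filter, in DESeq2 and in the fit of all 30 libraries. For R04E5.10 these settings called 227 genes higher and 113 lower of 26309, 349 and 255 of 14565, and 478 and 461 of 16867. For F26D12.1 each of them called 4 higher and 0 lower. The RM contrasts between treatments went from 3 calls to 0 with replicates 1 and 2 alone. With each library left out, counts were 5 to 6 in C01A2.5, 2 in M04C9.5, 2 to 4 between the L4440 groups and 0 in R186.7, ZK795.1, F25H2.5, R04E5.10 and F26D12.1. Numbers of all genes called are not given here for single libraries left out or for the RM contrasts with replicates 1 and 2 alone. The cause of these changes was not tested.

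The replicate block gave 6 members in C01A2.5 in place of 5 and 4 RM contrasts in place of 3, and the numbers are only accession order. In C01A2.5 the block called 8505 of 16495 genes higher and 5985 lower. Correlations of same-numbered libraries were over 0.1 in all 3 pairs for F26D12.1 and its control (0.223, 0.238 and 0.732) and in no other comparison, and there the block called 0 members. Scaling moved the median gene of C01A2.5 from 0.42 to 0.19 with relative log expression factors and 0.66 with library totals. Between the L4440 groups it was 0.08, and 0.21 with library totals. With 15 to 98 counts per library for hsp-12.6 and 21 to 61 for hsp-12.3, depth limits what could be called for both, and F44E5.4, hsp-16.1 and hsp-16.48 were below what could be tested.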
